A study of Mus musculus with 4 samples.

Results

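Classical cadherins and the catenins bound to their cytoplasmic tails were followed through TGFβ-induced epithelial-to-mesenchymal transition (EMT) in NMuMG, a mouse cell line with epithelial form that was derived from mammary gland. The members were 10 genes fixed by symbol: the cadherin genes Cdh1, Cdh2, Cdh3, Cdh4, Cdh5 and Cdh11, and the catenin genes Ctnna1, Ctnnb1, Ctnnd1 and Jup. Of these, 9 were found among the 21971 genes of the count table, and Cdh4 was not analysed here. The 4 groups held 1 library each. The control line stably overexpressed TRF1ΔN, a mutated human form of the telomere-binding protein TRF1, and was sampled without TGFβ (0 h) and 24 h into treatment with 5 ng/ml of it. The other line overexpressed the same mutant joined to the Vp16 transcription activation domain (Vp16-TRF1ΔN), used by the study to raise telomeric RNA of the TERRA type, and was sampled at the same times. Both lines thus carried TRF1ΔN, and whether each was a clone or a pool is not given in the sources used here.

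Classical cadherins hold neighbouring cells together through their extracellular domains, and their tails bind catenins. β-catenin (Ctnnb1) or its relative plakoglobin (Jup) binds the tail and α-catenin (Ctnna1), which links the complex to actin, while p120-catenin (Ctnnd1) binds nearer the membrane and keeps cadherin at the surface. Loss of E-cadherin with gain of N-cadherin, the cadherin switch, is a textbook mark of EMT, and β-catenin also acts with TCF/LEF factors in Wnt signalling.

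The libraries held 35418985 to 45983910 counts. The construct row for TRF1ΔN had 1863 counts at 0 h and 7798 at 24 h in the TRF1ΔN line but only 123 and 159 in Vp16-TRF1ΔN, so the lines were not matched in construct RNA, and the control line's count was higher with TGFβ. The part of this in the differences between lines was not tested. The Vp16 row had 0 and 1 counts in TRF1ΔN and 15 and 27 in Vp16-TRF1ΔN. The keratin genes Krt8 and Krt18, markers of simple and luminal epithelium, were abundant in every library (at least 65274 and 107999 counts). In contrast, the epithelial surface marker Epcam had only 4 to 18 counts. The luminal markers Elf5, Esr1 and Prlr had at most 6 counts in any library. With TGFβ, Krt8 rose by 0.30 and Krt18 rose by 0.56 on the log2 scale. Krt8, Krt18 and Krt19 made up nearly all of the luminal sum given next. Of the 10 luminal markers 8 had a row, and their summed level was 5760 to 6102 CPM (the usual unit of counts scaled by library size, here after TMM scaling), although Krt19 fell by 3.42 and Muc1 fell by 3.37 on the log2 scale with TGFβ.

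The cadherin genes fell into an abundant pair and a group near the detection limit. E-cadherin (Cdh1, chr8:106603351-106670246, plus strand, GRCm38) and N-cadherin (Cdh2, chr18:16588877-16809246, minus strand) had at least 3328 counts in every library. P-cadherin (Cdh3), VE-cadherin (Cdh5) and cadherin-11 (Cdh11) had at most 50. Of the 6 cadherin members 4 lie on chromosome 8, and Cdh3 ends only 46053 bases before Cdh1 begins. Despite this closeness their levels per exon length were far apart: 79.9 RPKM (CPM per kilobase of exon) for Cdh1 against 0.0527 RPKM for Cdh3 in the TRF1ΔN library at 0 h.

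Cdh1 was high in both untreated libraries and lower in both treated ones. It stood at 366 CPM in TRF1ΔN and 368 CPM in Vp16-TRF1ΔN at 0 h, and at 107 CPM and 166 CPM after 24 h of TGFβ. The untreated libraries did not differ beyond counting error, with a ratio of 1.01 (95% counting interval 0.986 to 1.03). Within a line, Cdh1 was 3.41-fold lower after TGFβ in TRF1ΔN (3.30 to 3.52) and 2.22-fold lower in Vp16-TRF1ΔN (2.16 to 2.29). Averaged over the lines, Cdh1 fell by 1.46 ± 0.16 (SE) on the log2 scale (adjusted p = 0.00398, edgeR quasi-likelihood test). All intervals given for ratios of libraries cover counting error only.

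Cdh2 moved the other way, by much the same amount in either line. Its levels were 78.8 CPM and 77.2 CPM at 0 h in TRF1ΔN and Vp16-TRF1ΔN, and 190 CPM and 197 CPM at 24 h. TGFβ libraries were thus 2.41-fold higher in TRF1ΔN (2.32 to 2.504) and 2.55-fold higher in Vp16-TRF1ΔN (2.45 to 2.66). The average change was 1.31 ± 0.07 on the log2 scale (adjusted p = 0.00100, edgeR).

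The switch can be read inside each library, where the ratio of 2 genes needs no scaling between libraries. Per exon length, Cdh2 stood at 0.122 of Cdh1 in TRF1ΔN and 0.119 in Vp16-TRF1ΔN at 0 h. At 24 h the ratio was 1.003 in TRF1ΔN and 0.674 in Vp16-TRF1ΔN. The ratio therefore increased 8.21-fold in TRF1ΔN (7.80 to 8.63) and 5.67-fold in Vp16-TRF1ΔN (5.39 to 5.97), whatever the length used. With the longest transcript in place of all exons the ratio at 24 h was 1.62 in TRF1ΔN and 1.09 in Vp16-TRF1ΔN. Which gene led at 24 h thus depended on length in Vp16-TRF1ΔN. In TRF1ΔN the genes were level or Cdh2 was ahead.

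**Figure D1:**
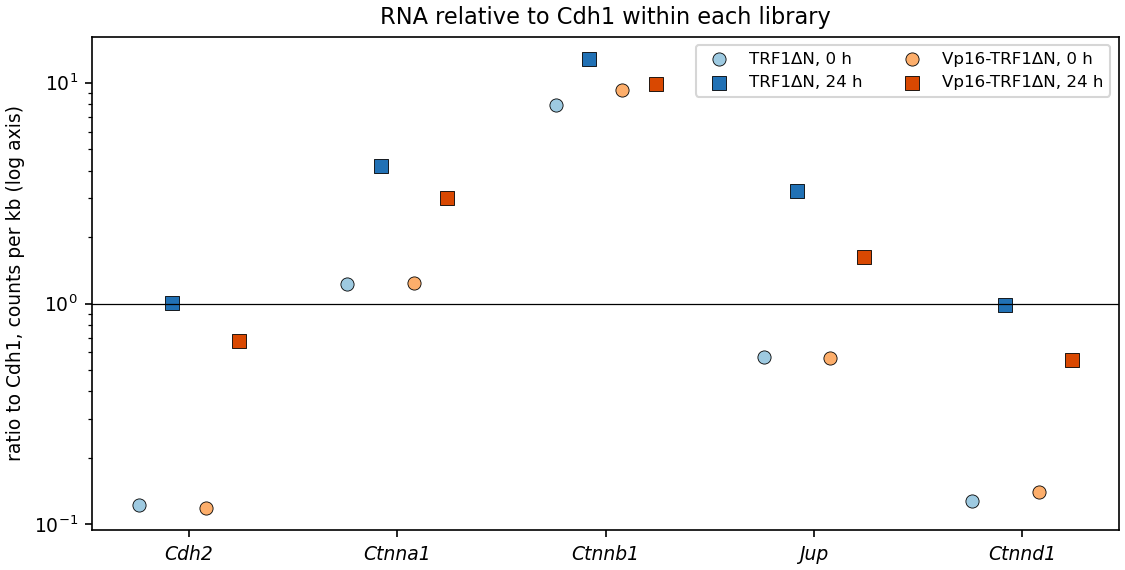
RNA of Cdh2 and of each catenin gene relative to Cdh1 within each library, as counts per kilobase of exon on a log axis, with 1 point per library and a line at a ratio of 1. Every gene shown had a higher ratio at 24 h than at 0 h in both lines, and each 24 h ratio was lower in Vp16-TRF1ΔN than in TRF1ΔN.

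Cdh5, the cadherin of endothelial junctions, rose from a trace. It had 4 and 5 counts at 0 h in TRF1ΔN and Vp16-TRF1ΔN, and 50 and 24 counts at 24 h. The ratio was 14.1 in TRF1ΔN (5.19 to 53.9) and 6.04 in Vp16-TRF1ΔN (2.26 to 20.3), and the average log2 change was 3.21 ± 0.45 (adjusted p = 0.00680, edgeR). Endothelial markers did not rise with it, and the 2 that were tested fell. Of 10 listed 6 had a row, and their summed level went from 113 to 37.7 CPM and from 121 to 47.7 CPM in the same lines. Pecam1, Tek, Esam and Vwf had at most 6 counts in any library. Nearly all of the summed level was the VEGF receptor gene Flt1, which fell by 1.45 on the log2 scale, and Egfl7 fell by 2.18.

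Cdh3 and Cdh11 stayed under 20 counts everywhere. Cdh3 had 11 and 7 counts in TRF1ΔN at 0 h and 24 h, and 7 and 14 in Vp16-TRF1ΔN. Both intervals of its ratio included 1 (0.237 to 2.03 and 0.950 to 7.36), and it did not pass the test (log2 change 0.46 ± 0.59, adjusted p = 0.556, edgeR). Cdh11, a mesenchymal and osteoblast cadherin, had 7 and 4 counts in TRF1ΔN at 0 h and 24 h and 10 and 5 in Vp16-TRF1ΔN, and did not pass the filter on low counts. A change in it was not detectable at this depth, since its ratio intervals reached from 0.139 to 2.54 and from 0.169 to 2.02. Osteoblast markers were partly present, with Runx2 at a mean of 44.1 CPM and Sp7 at 0 to 9 counts. Alpl had 935 and 964 counts in TRF1ΔN at 0 h and 24 h, and 110 and 116 in Vp16-TRF1ΔN. In bulk RNA, fewer cells expressing a gene and less RNA per cell cannot be told apart.

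**Figure D2:**
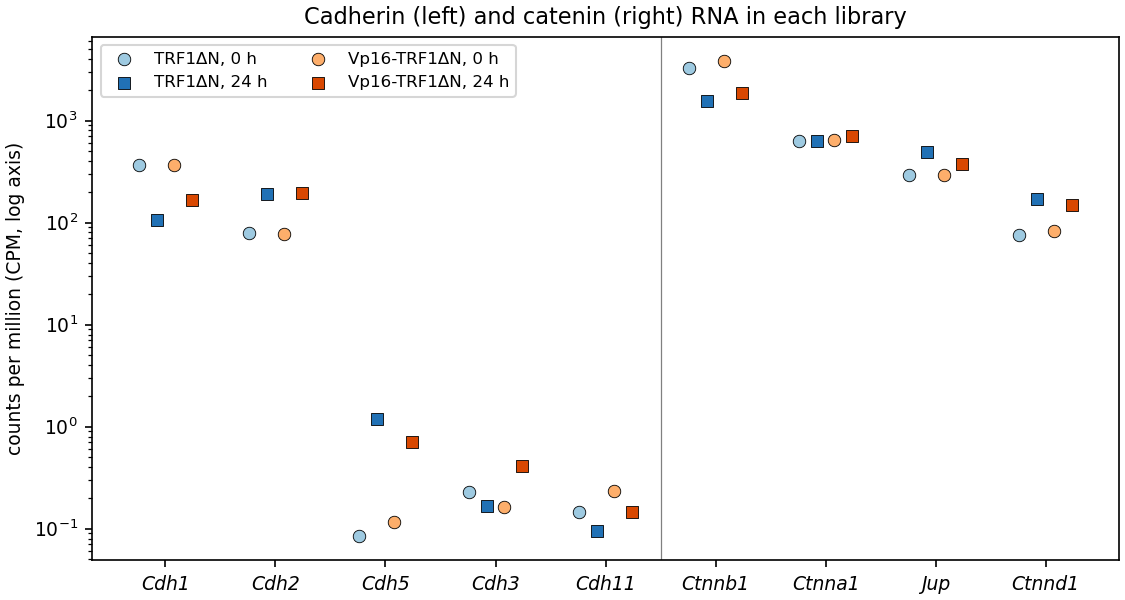
Level of each analysed cadherin gene (left) and catenin gene (right) in CPM on a log axis, with 1 point per library. Circles are 0 h and squares 24 h of TGFβ. Cdh1 and Ctnnb1 lie lower and Cdh2, Cdh5, Jup and Ctnnd1 higher at 24 h in both lines, while Ctnna1 stays between 627 and 699 CPM.

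The catenin genes were all abundant but did not follow a common course. β-catenin and plakoglobin, which can replace each other on the cadherin tail, changed in opposite directions, so the 250 bases before their RefSeq start sites are shown (GRCm38.p6, each on its gene's own strand). Capitals mark matches to 3 short motifs searched on both strands: the E-box CACCTG bound by Snail and Zeb factors, the SMAD element CAGAC, and the TCF/LEF core CTTTGA. The first window is chr9:120933150-120933399 (plus strand) and the second chr11:100397791-100398040 (minus strand). Ctnnb1 had 2 RefSeq starts, of which only the one at 120933400 was used. It lies inside the annotated gene, which begins at 120929216, and the window before the other start was not searched.
Ctnnb1: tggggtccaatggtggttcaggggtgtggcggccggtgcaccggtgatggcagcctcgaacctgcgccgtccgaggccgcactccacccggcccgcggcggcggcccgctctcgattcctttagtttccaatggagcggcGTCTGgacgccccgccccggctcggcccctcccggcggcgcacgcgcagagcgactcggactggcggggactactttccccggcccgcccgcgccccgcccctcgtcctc
Jup: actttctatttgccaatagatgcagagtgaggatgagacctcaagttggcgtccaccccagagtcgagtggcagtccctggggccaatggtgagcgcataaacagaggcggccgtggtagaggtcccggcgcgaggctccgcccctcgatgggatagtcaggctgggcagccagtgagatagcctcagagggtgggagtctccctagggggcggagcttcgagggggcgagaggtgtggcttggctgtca
The Ctnnb1 window had 1 SMAD element match, on the opposite strand and 110 bases before the start, and the Jup window had no match to any of the motifs. Among 32817 RefSeq windows of the same length, 42.2% held CAGAC, 17.2% CACCTG and 13.8% CTTTGA. The Ctnnb1 window was 74.8% G and C and the Jup window 62.0%.

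Ctnnb1 (chr9:120929216-120960507, plus strand) was the most abundant member by far. It stood at 3284 CPM and 3880.1 CPM in TRF1ΔN and Vp16-TRF1ΔN at 0 h, and at 1555 CPM and 1854 CPM at 24 h. Per exon length it ranked 25th and 21st of 14887 protein-coding genes at 0 h and 55th and 37th at 24 h in the same lines. It was 2.11-fold lower after TGFβ in TRF1ΔN (2.09 to 2.13) and 2.09-fold lower in Vp16-TRF1ΔN (2.07 to 2.11). The average log2 change was -1.07 ± 0.07 (adjusted p = 0.00136, edgeR). Exons of the gene Ulk4 overlap it on the other strand, and Ulk4 had at most 0.222% of its counts. Mir7090 overlaps its exons on the same strand and had 1 to 11 counts. How many Ctnnb1 reads these overlaps affected cannot be read from such counts, as the strand setting is not stated.

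Jup (chr11:100368958-100397763, minus strand) encodes plakoglobin, which also serves in desmosomes. It had 293 CPM and 295 CPM at 0 h in TRF1ΔN and Vp16-TRF1ΔN, and 490.0 CPM and 378 CPM at 24 h. It was 1.67-fold higher after TGFβ in TRF1ΔN (1.64 to 1.71) and 1.28-fold higher in Vp16-TRF1ΔN (1.25 to 1.31). The average log2 change was 0.55 ± 0.11 (adjusted p = 0.0180, edgeR). Per exon length, Ctnnb1 exceeded Jup 13.9-fold in TRF1ΔN and 16.3-fold in Vp16-TRF1ΔN at 0 h, and 3.93-fold and 6.08-fold at 24 h.

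Ctnnd1 (chr2:84600071-84650765, minus strand), the p120-catenin gene, rose with Jup. Its levels were 74.9 CPM and 83.0 CPM at 0 h in TRF1ΔN and Vp16-TRF1ΔN, and 169 CPM and 147 CPM at 24 h. The treated libraries were 2.26-fold higher in TRF1ΔN (2.17 to 2.36) and 1.78-fold higher in Vp16-TRF1ΔN (1.70 to 1.85), with an average log2 change of 1.003 ± 0.10 (adjusted p = 0.00341, edgeR). The counts are per gene, so p120 isoforms cannot be separated, and the annotated gene Gm28635 shares exons with Ctnnd1 on the same strand.

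Ctnna1 (chr18:35118859-35254779, plus strand), the α-catenin gene, showed the smallest change of the members tested. It had 627 CPM and 641 CPM at 0 h in TRF1ΔN and Vp16-TRF1ΔN, and 630 CPM and 699 CPM at 24 h. The ratio was 1.005 in TRF1ΔN (0.988 to 1.02) and 1.09 in Vp16-TRF1ΔN (1.07 to 1.11), and the average log2 change of 0.065 ± 0.070 did not pass the test (adjusted p = 0.482, edgeR).

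Of the 8 members tested 6 (75.0%) were called with TGFβ, 4 higher and 2 lower, where 48.5% of all 14305 genes tested were called (23.1% higher and 25.4% lower). Among 8 genes this is an excess of only a few over the background. The median log2 change of the members tested was 0.51, against -0.0085 over all genes tested. The test compared libraries within each line and took any difference between the lines' responses as noise, on 1 residual degree of freedom. The spread of each gene was moderated with that of all genes (3.391 prior degrees of freedom), so its SE and p-value rest largely on other genes. A 24 h library without TGFβ is not among the labels, so time in culture and TGFβ cannot be told apart.

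**Figure D3:**
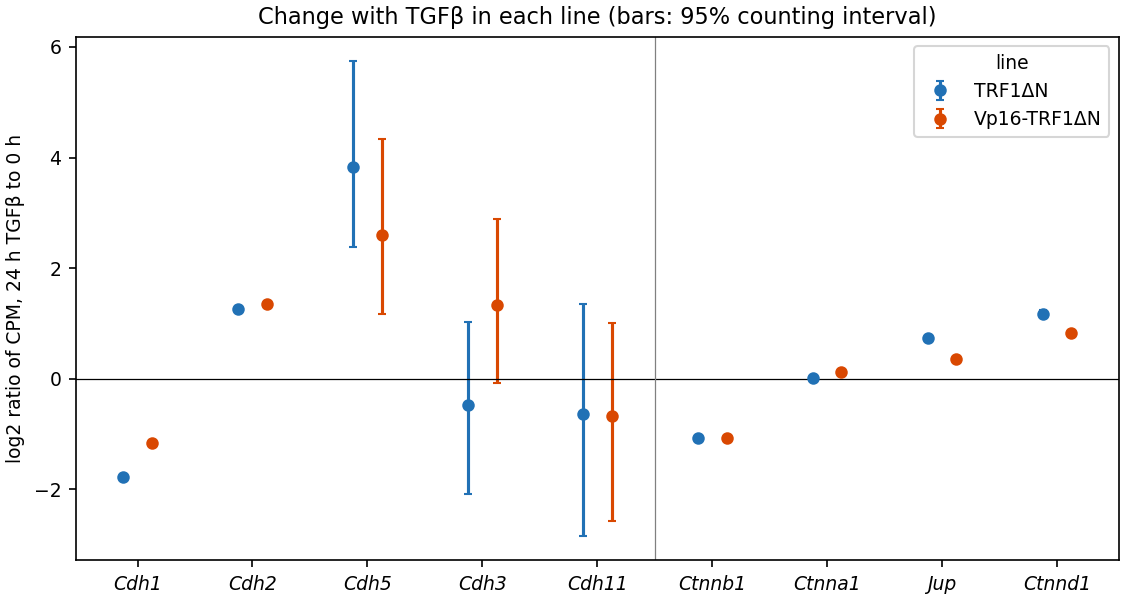
The log2 ratio of CPM at 24 h of TGFβ to 0 h for each analysed member, with TRF1ΔN in blue and Vp16-TRF1ΔN in orange and bars for the 95% counting interval, which is narrower than the symbol for abundant genes. Cdh1, Ctnnd1 and Jup lie nearer to 0 in Vp16-TRF1ΔN, Cdh2 and Ctnnb1 nearly coincide, and the intervals of Cdh3 and Cdh11 include 0.

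The ratio of summed catenin to summed cadherin members was higher at 24 h in TRF1ΔN and lower in Vp16-TRF1ΔN. The make-up of both sums changed. Summed per exon length, the 5 cadherin members analysed went from 89.8 to 47.3 RPKM in TRF1ΔN and from 90.2 to 60.9 RPKM in Vp16-TRF1ΔN. These sums leave out Cdh6 (20.4 to 63.5 and 20.75 to 50.4 RPKM) and Cdh17 (48.9 to 3.52 and 55.8 to 8.13 RPKM), which are not members. The summed catenin members went from 786 to 497 RPKM and from 904 to 545 RPKM in the same lines. The catenin sum was thus 8.75 and 10.03 times the cadherin sum at 0 h and 10.5 and 8.94 times at 24 h. With the longest transcript as length this ratio went from 11.9 to 12.2 in TRF1ΔN and from 13.6 to 10.7 in Vp16-TRF1ΔN. Ctnnb1 made up 80.5% and 82.6% of the catenin sum at 0 h and 60.3% and 65.6% at 24 h, while Jup went from 5.79% to 15.3% and from 5.07% to 10.8%. Ctnnd1 relative to Cdh1 went from 0.128 to 0.987 in TRF1ΔN, an increase of 7.71-fold (7.32 to 8.12), and from 0.141 to 0.555 in Vp16-TRF1ΔN, an increase of 3.94-fold (3.74 to 4.16).

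Before TGFβ the lines were close for every abundant member. At 0 h the ratio of Vp16-TRF1ΔN to TRF1ΔN lay between 0.980 for Cdh2 and 1.18 for Ctnnb1 (1.17 to 1.19). Of the 6 members whose mean reached 1 CPM, 0 were at least 2-fold different, as were 0.594% of the 11777 genes at that level. After 24 h of TGFβ 0 of these 6 reached 2-fold either, against 3.29% of genes, but differences were wider. Below that level, Cdh3 had a ratio of 2.46 with an interval that included 1 (0.928 to 7.19), and Cdh5 was 1.70-fold lower in Vp16-TRF1ΔN. Cdh1 was 1.55-fold higher in Vp16-TRF1ΔN (1.49 to 1.61), Ctnnb1 1.19-fold higher (1.18 to 1.205) and Ctnna1 1.11-fold higher (1.09 to 1.13). Jup was 1.30-fold lower (1.27 to 1.33) and Ctnnd1 1.15-fold lower (1.11 to 1.19), whereas Cdh2 had a ratio of 1.04 (1.01 to 1.07).

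Averaged over both times, no member was called between the lines in edgeR's quasi-likelihood test, nor was any of the 14305 genes (0%), though 1779 genes (12.4%) had an unadjusted p under 0.05. Among the members Ctnnb1 alone did so (log2 difference 0.25 ± 0.07, unadjusted p = 0.0179, adjusted p = 0.399, edgeR), higher in Vp16-TRF1ΔN at both times. DESeq2's Wald test called 13 genes higher and 34 lower, with 0 members among them.

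The difference between the lines' TGFβ responses has no test with 1 library per group. As a log2 difference (Vp16-TRF1ΔN minus TRF1ΔN, with a 95% interval from counting error), it was 0.62 for Cdh1 (0.55 to 0.68), whose fall was smaller in Vp16-TRF1ΔN. The rises of Jup (-0.38, -0.43 to -0.34) and Ctnnd1 (-0.35, -0.43 to -0.26) were also smaller there. The log2 difference was 0.117 for Ctnna1 (0.082 to 0.151), 0.084 for Cdh2 (0.0022 to 0.166) and 0.012 for Ctnnb1 (-0.0062 to 0.031). Of the 6 members whose mean reached 1 CPM, 0 differed by 2-fold, as did 2.73% of genes at that level. Below it, the difference was 1.498 for Cdh3 (-0.20 to 3.20) and -1.04 for Cdh5 (-2.75 to 0.68), both with intervals that included 0. Of the 5 called members whose mean reached 1 CPM, 4 had a ratio nearer to 1 in Vp16-TRF1ΔN, the exception being Cdh2. Over all 6246 called genes at that level this held for 65.8%, so the members' share is near the background.

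Within each line separately, and among the 6 members whose mean reached 1 CPM, 2 were at least 2-fold higher and 2 at least 2-fold lower in TRF1ΔN, where 8.4% and 10.9% of genes were (19.3% in all). In Vp16-TRF1ΔN 1 was higher and 2 lower, where 6.92% and 9.09% of genes were (16% in all). Cdh2, Cdh1 and Ctnnb1 were counted in both lines and Ctnnd1 in TRF1ΔN, its ratio in Vp16-TRF1ΔN being 1.78. Cdh5, below that level, was also more than 2-fold higher in both lines, and Cdh3 had a ratio of 2.52 in Vp16-TRF1ΔN with an interval that included 1.

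The other cadherin genes were examined next, because E- and N-cadherin were not the only abundant ones. Of 33 further cadherin and protocadherin genes listed, 21 had a row and 15 were tested. Of these 8 rose and 3 fell (23.1% and 25.4% over all genes tested), with a median log2 change of 0.29. M-cadherin (Cdh15), known from muscle, went from 1 to 325 counts in TRF1ΔN and from 1 to 217 counts in Vp16-TRF1ΔN, 368-fold (65.6 to 14573) and 273-fold higher (48.5 to 10829). Of 5 muscle markers 2 had a row, Des with 4 to 21 counts and Actc1 with at most 1 count, and their summed level was 0.378 and 0.487 CPM at 0 h and 0.190 and 0.117 CPM at 24 h in TRF1ΔN and Vp16-TRF1ΔN. The protocadherin gene Pcdh18 rose by 2.32 on the log2 scale. LI-cadherin (Cdh17), of intestinal epithelium, fell most (log2 change -3.28 ± 0.27, adjusted p = 0.00222, edgeR), from 219 to 15.8 CPM and from 250 to 36.4 CPM, and Cdh16 fell by 1.29 on the log2 scale.

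Cdh6, a type II classical cadherin, rose by 1.46 ± 0.11 on the log2 scale (adjusted p = 0.00181, edgeR) and was added to the named genes after its values were seen. It had 184 CPM and 187 CPM at 0 h in TRF1ΔN and Vp16-TRF1ΔN, and 573 CPM and 455 CPM at 24 h. Among the 12 genes named Cdh with a row, and per exon length, Cdh1 held 47.0% and 45.4% of the sum at 0 h in these lines, followed by Cdh17 with 28.8% and 31.5%. At 24 h Cdh6 held 51.6% and 39.5%, ahead of Cdh1 (19.1% and 28.4%) and Cdh2 (19.1% and 19.2%). With the longest transcript as the length Cdh6 still led at 24 h, with 46.2% and 35.1%.

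**Figure D4:**
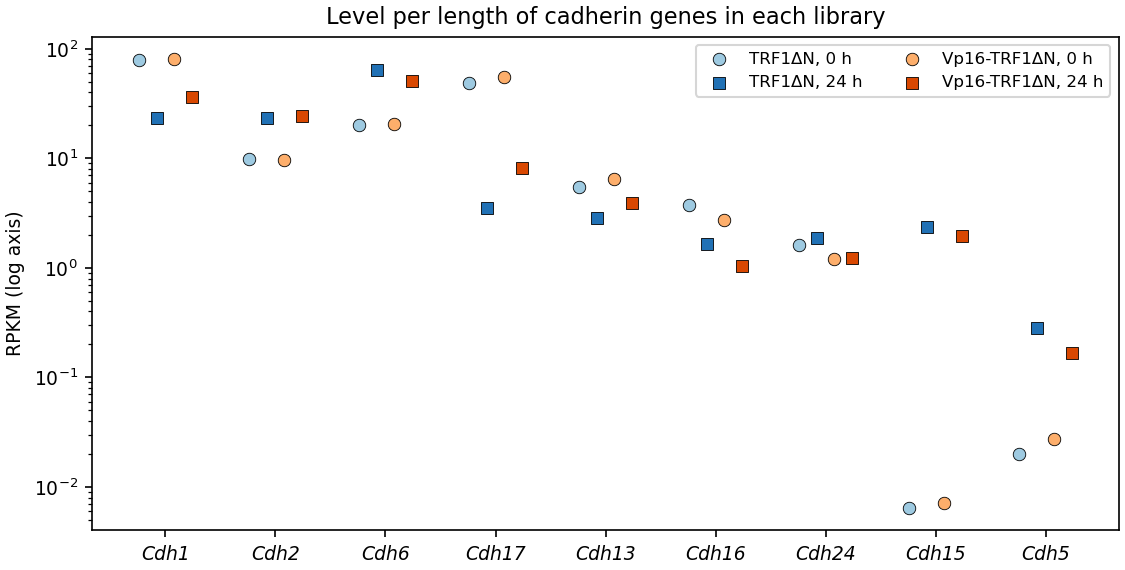
Level per exon length (RPKM, log axis) of cadherin genes in each library, with circles for 0 h and squares for 24 h of TGFβ. Cdh6 is the highest at 24 h in both lines (63.5 and 50.4 RPKM), Cdh17 drops from second place, and Cdh15 appears from a single count.

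Catenin relatives split evenly. All 4 genes tested were called, 2 higher (Arvcf, a p120 relative, at 0.90 on the log2 scale, and Ctnnbip1, an inhibitor of β-catenin binding to TCF, at 0.49) and 2 lower (the α-catenin-like gene Ctnnal1 at -1.01 and Pkp4 at -0.56). The median was -0.036, and over all genes tested 48.5% were called.

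Nectins form a parallel adhesion system at adherens junctions and are tied to actin by afadin (Afdn). Of 9 genes tested 4 rose and 4 fell (23.1% and 25.4% over all genes tested), with a median of -0.19. The ones that rose were adhesion receptors: Nectin4 (4.19), Nectin1 (2.61), Nectin3 (1.39) and Pvr (0.66). Nectin2, a receptor as well, did not rise and was not called (-0.19). The ones that fell were cytoplasmic partners, led by Plekha7 (-1.71), which joins p120-catenin to microtubules, and Ssx2ip (-0.71), an afadin partner. The others were Afdn (-0.57) and Camsap3 (-0.30), the latter not called by DESeq2's Wald test (adjusted p = 0.291).

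Of 17 actin linkers 8 rose and 5 fell (23.1% and 25.4% over all genes tested), with a median of 0.15. Zyx (zyxin, 2.67) and Actn1 (α-actinin, 1.51) rose most, and Vcl, which encodes vinculin, a partner of α-catenin under tension, rose by 0.87. Lima1 (EPLIN, which links α-catenin to actin) was lowest at -1.95, followed by Lmo7 (-1.19). Without a line term in the fit, 3 of the 17 were called lower.

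Of 17 genes of cadherin processing and turnover 8 rose and 3 fell (23.1% and 25.4% over all genes tested), with a median of 0.066. The kinase gene Fyn (2.25) and the receptor phosphatase gene Ptprm (1.30) were highest, and the receptor phosphatase gene Ptprf (-1.39) and the trafficking GTPase gene Arf6 (-0.67) lowest. DESeq2's Wald test called 5 of them higher. Furin, the protease that matures cadherin precursors, rose by 0.84.

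Genes that act on β-catenin protein or with it in the nucleus rose or were not called. Of all genes tested, 23.1% rose and 25.4% fell, and with 9 genes tested in each list the absence of falls rests on few genes. In the destruction list 6 of 9 rose and 0 fell in edgeR (0 fell at an unadjusted p under 0.05 and 0 in DESeq2), with a median of 0.28. Btrc (0.82), a β-catenin ubiquitin ligase subunit, was called by both tools. Axin2 (0.85), a target of Wnt signalling, was lost in DESeq2's Wald test (adjusted p = 0.260), which called 1 gene of the list. Among nuclear partners 4 of 9 rose and 0 fell by the same counts, with a median of 0.24, led at a mean of 1 CPM or more by Tcf7 (1.496) and Bcl9 (0.65).

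Lists of Cdh1 regulators are given against the 23.1% of all genes tested that rose and the 25.4% that fell. Of 13 E-cadherin repressor genes tested 7 rose, 1 fell and 5 were not called, with a median of 0.43. Snai1 (3.67) and Zeb1 (1.95) were highest and Twist2 (-1.33) fell. Of 7 E-cadherin activator genes 5 fell, 1 rose and 1 was not called, with a median of -0.72. At a mean of 1 CPM or more Klf5 (-1.84) and Grhl1 (-1.01) were lowest and Gata3 rose (1.65), and below that level Grhl2 fell by 2.20 (3 to 38 counts), while DESeq2's Wald test called 3 of them lower and neither Grhl1 (adjusted p = 0.0711) nor Grhl2 (adjusted p = 0.0950). Over the 9 lists of partners and regulators, 48 of 100 genes tested rose and 23 fell.

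**Figure D5:**
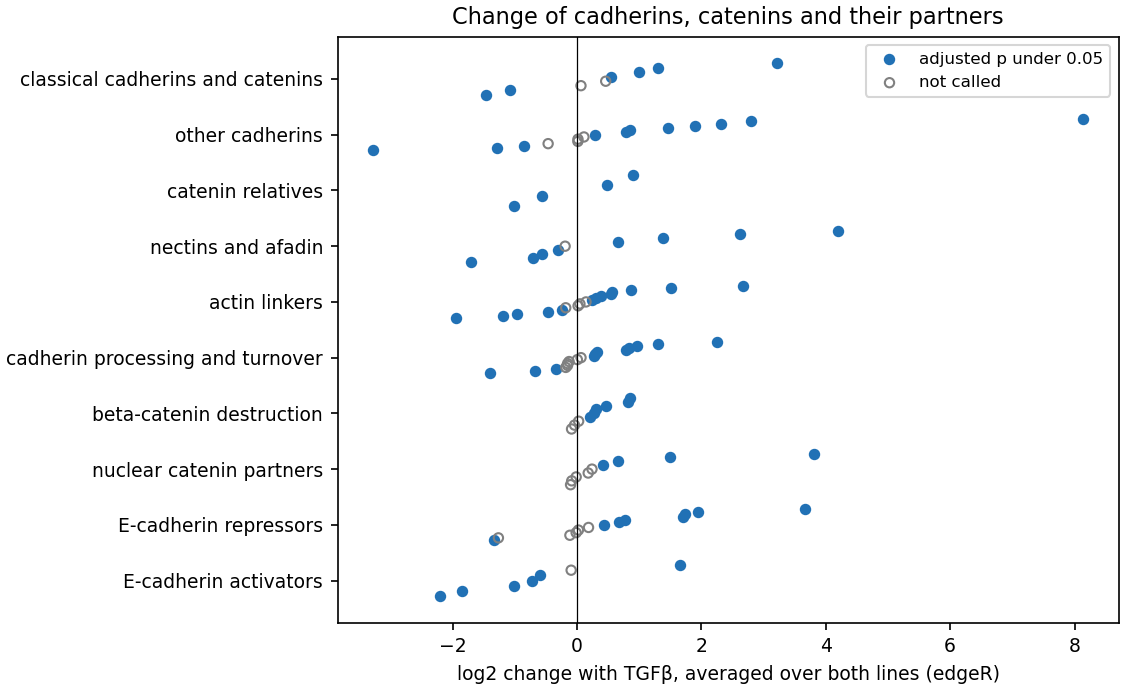
The log2 change with TGFβ averaged over both lines for each tested gene of the member list and the 9 lists of partners, with filled points for genes with an adjusted p under 0.05 in edgeR's quasi-likelihood test and open points for the rest. Cdh15 stands at 8.14 and Cdh17 at -3.28, and no gene of the destruction and nuclear partner lists is filled below 0.

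Markers of other cell types moved as well, and their part in the members' changes was not tested. Neural markers, relevant to Cdh2, had 4 of 6 in the table, with a summed level of 17.5 and 16.5 CPM at 0 h and 126 and 126 CPM at 24 h. Nearly all of it was the microtubule gene Map2, and Tubb3 had 4 and 1 counts at 0 h and 338 and 24 at 24 h in TRF1ΔN and Vp16-TRF1ΔN, while Sox10 went from 0 to 19 counts in TRF1ΔN and from 0 to 1 in Vp16-TRF1ΔN, and Syt1 had at most 9. Fibroblast markers had 5 of 7 and went from 1.32 to 26.4 CPM and from 1.95 to 12.9 CPM, with Dcn and Col3a1 at 0 to 2 counts. The other 3 rose: the matrix gene Col1a1 went from 35 to 778 and from 46 to 328 counts, Pdgfrb from 0 to 217 and from 1 to 36, and Pdgfra rose by 1.91 on the log2 scale. Basal markers (6 of 7) summed to 3.38 and 2.41 CPM at 0 h and 6.30 and 3.47 CPM at 24 h in TRF1ΔN and Vp16-TRF1ΔN, within which Acta2 (1 to 75 and 1 to 33 counts) and Krt17 (0 to 56 and 1 to 17) rose and Krt5 (21 to 1 and 15 to 1) fell. Osteoblast markers (3 of 5) went from 56.5 to 79.6 CPM and from 37.8 to 51.1 CPM. Of this, Alpl held 19.6 and 22.9 CPM in TRF1ΔN but only 2.55 and 3.38 CPM in Vp16-TRF1ΔN. Immune markers (4 of 6) went from 3.53 to 5.35 CPM and from 3.48 to 3.85 CPM. Within these sums Csf1r rose (1 to 101 and 2 to 21 counts). Cd68, most of the sum at 0 h, was not called (3.15 to 2.92 CPM and 3.09 to 3.21 CPM). Lyz2 (10 to 0 and 9 to 0 counts) and Ptprc (7 to 1 and 6 to 1) had fewer counts at 24 h.

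Genes with the profile most like a member's were taken from 9726 genes whose mean reached 5 CPM, by Euclidean distance between centred log2 levels over the 4 libraries. Nearest to Cdh1 were Bmp4 (distance 0.060), Prkar2b (0.062), Tnfsf9 (0.063), Spint2 (0.081) and Ezr (0.088). Nearest to Cdh2 were Gabbr1 (0.033), Ptprm (0.034), Spred3 (0.058), Dusp1 (0.062) and Add2 (0.073). The nearest to Cdh11 were Smim1 (0.082) and Hgfac (0.117), a match that rests on at most 10 counts of Cdh11 in a library. With 4 libraries such distances only describe these samples.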

How the data were processed

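Total RNA depleted of ribosomal RNA was sequenced. Per the submitters' processing notes FastQC, STAR, HTSeq and DESeq2 were used with build mm10, with no version, and the annotation and strand setting used are not stated. The authors deposited counts per gene, and log2 values that equal log2 of the count over a DESeq2 size factor, plus 1. The log2 table served only as a check. The 4 construct rows (0.0129% to 0.0582% of counts) were left out of library sizes and tests.

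Symbols and exon lengths came from GENCODE M21 (GRCm38), for 21889 of 21971 genes a symbol. Libraries were scaled by TMM. An additive model (line and TGFβ) was fitted with edgeR 4.0.16 quasi-likelihood (R 4.3.3) to 14305 genes, Benjamini-Hochberg adjusted over all of them, two-sided, called at adjusted p under 0.05. SE was taken as the size of the log2 change over √F. Ratios of 2 libraries carry exact conditional 95% counting intervals, log2 ratios a prior count of 2. Ratios of ratios use Poisson variances. Alternatives used DESeq2 1.42.0 and limma 3.58.1. The fit was also run on simulated counts with a common spread, additive effects and few changed genes. For the TGFβ term it called 97 of 100 genes changed 2-fold, and 7 unchanged genes. These settings are simpler than the data here, so that run does not vouch for the calls.

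The members and lists were chosen with earlier results of these data known. A further list of partner genes is not reported here. All members are named. From each list up to 2 called genes with the highest and 2 with the lowest change at a mean of 1 CPM or more are named. Cdh6, Vcl, Furin and other further names were added after their values were seen. The promoter table held 3 members (Ctnnb1, Ctnnd1 and Jup). Nothing says that libraries came from separate cultures, so p-values measure only the spread among these libraries.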

Additional observations from a re-analysis of the deposited data

Results flagged for a closer look

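Cdh3, the P-cadherin gene, was the member whose TGFβ response pointed in opposite directions in the lines. Its log2 ratio was -0.38 in TRF1ΔN and 1.12 in Vp16-TRF1ΔN, a difference of 1.498. The difference was not tested, since each group held 1 library, and its counting interval of -0.20 to 3.20 included 0. The values rest on 7 to 14 counts per library.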

How the results depend on the processing

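All 47 refits of single members under the TGFβ term kept their direction and side of the threshold, with log2 changes of -1.48 to -1.43 for Cdh1, 1.29 to 1.31 for Cdh2 and 0.53 to 0.56 for Jup. The highest adjusted p of a called member was 0.0302 (Jup, without a line term). For the line term, genes called higher and lower numbered 28 and 81 without a filter on low counts, 13 and 34 with DESeq2's Wald test, and 4 were called lower without mitochondrial genes, against 0 in each case. The cause was not tested. Without mitochondrial genes, log2 ratios with TGFβ in TRF1ΔN were -0.026 for Ctnna1, -1.11 for Ctnnb1 and 0.71 for Jup, the line ratio of Ctnnb1 at 0 h was 0.22 and its difference of responses 0.035. At a threshold of 1.5-fold, genes counted higher and lower were 1885 and 2226 in TRF1ΔN and 1635 and 1913 in Vp16-TRF1ΔN with TGFβ, 132 and 142 between lines at 0 h, 686 and 511 at 24 h, and 872 for the difference of responses. Members counted were then 2 higher in Vp16-TRF1ΔN with TGFβ, 1 higher between lines at 24 h and 1 for the difference of responses (Cdh1). Without a filter on low counts the numbers were 1879 and 1944 in TRF1ΔN, 1368 higher in Vp16-TRF1ΔN (2 members), 179 and 206 at 0 h, 417 and 483 at 24 h, and 597 for the difference, since more genes enter. With the longest transcript as length the Cdh2 to Cdh1 ratio was 0.197, 1.62, 0.192 and 1.09 (TRF1ΔN at 0 h and 24 h, then Vp16-TRF1ΔN). With the line term in the fit, the TGFβ term compares libraries within a line, and leaving the line term out is the unpaired fit named above. No paired analysis by replicate number was possible because the labels give none, and leaving out a library leaves no residual degree of freedom. Depth limits Cdh3, Cdh5 and Cdh11, for which 3 counts equal 0.0630 to 0.0875 CPM.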
